A study of Bos taurus with 4 samples.

Results

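The HH and LL small RNA libraries, 1 of each, come from cells labelled as primary epithelium of the mammary gland of Chinese Holstein dairy cows. The unit compared is the miRNA precursor, the hairpin transcript from which mature miRNAs are cut. Reads of all listed sequence tags were summed per precursor, and precursors with at least 100 reads over both libraries were kept, which gave 143 of the 371 listed. These 143 held 99.98% of the listed miRNA reads in each library. The 2 libraries are part of a series of 4, whose other 2 are RNA-seq libraries with the same title codes.

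Cows of the series had milk with 4.85% fat in the high class and 3.41% in the low class. The labels do not spell out HH and LL, and the phenotype label of both small RNA libraries reads low milk fat. Directions are therefore given by title only, HH set against LL. Both share breed, tissue, cell type, feeding and the way the cells were isolated, by tissue culture of mammary tissue and enzyme digestion. The number of cows or cultures behind a library, and any pooling, are not known from the labels. With 1 library per title there is no replicate check, no test and no p-value, and each difference is between these libraries, not between milk fat groups.

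A miRNA guides the Argonaute protein to messenger RNAs, mostly through its seed, bases 2 to 8 from the 5′ end, and lowers the translation and stability of those messages. Members of a miRNA family share the seed. A hairpin has a 5′ and a 3′ arm, and the arm that is kept, the base at which it starts and the length at which it ends can all vary between cells. In the mammary gland miRNAs are known for roles in the growth and differentiation of the epithelium and in milk lipid synthesis.

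The most abundant tags of the precursors that carried the main differences are shown first, as deposited in DNA letters, with the seed in capitals. The let-7 tags share a seed, as do those of bta-mir-221 with bta-mir-222 and of bta-mir-29a with bta-mir-29b-1.
bta-let-7a-3: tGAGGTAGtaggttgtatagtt
bta-let-7b: tGAGGTAGtaggttgtgtggtt
bta-let-7i: tGAGGTAGtagtttgtgct
bta-mir-222: aGCTACATctggctactgggtc
bta-mir-221: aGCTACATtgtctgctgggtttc
bta-mir-184: tGGACGGAgaactgataagggt
bta-mir-320-1: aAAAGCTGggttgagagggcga
bta-mir-29a: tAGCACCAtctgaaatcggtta
bta-mir-29b-1: tAGCACCAtttgaaatcagt
bta-mir-152: tCAGTGCAtgacagaacttgg
bta-mir-33a: gTGCATTGtagttgcattgca
bta-mir-30b: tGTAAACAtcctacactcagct
bta-mir-224: cAAGTCACtagtggttccgtttag
bta-mir-452: aACTGTTTgcagaggaaactgaga
bta-mir-124b: tAAGGCACgcggtgaatg

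The HH file listed 7087726 miRNA reads in 2792 tags and the LL file 9059038 reads in 2948 tags. The files shared 2033 of the 3707 distinct sequences, and each sequence was listed under a single precursor. The 10 most abundant precursors held 88.7% of the HH reads and 90.1% of the LL reads. A count of 0 allows up to 3 reads, which is 0.423 RPM (reads per 1000000 listed miRNA reads) in HH and 0.331 RPM in LL. These limits and all intervals cover counting error of reads only.

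The labelled cell type was checked against miRNAs known to mark it. The epithelial list, which comprised miR-200a, miR-200b, miR-200c, miR-141, miR-429, miR-203 and miR-205, had 2 listed reads in HH and 3 in LL. Of its 7 miRNAs, 4 were listed at all, none with more than 1 read in a library. The mesenchymal list (miR-143, miR-145, miR-199a, miR-199b and miR-214) held 1.09% of HH reads and 0.745% of LL reads. Most of these came from 1 precursor, bta-mir-199a-2, with 71160 of 77366 reads in HH and 64047 of 67478 in LL. By the reads listed, the epithelial markers were nearly absent from both small RNA libraries, which goes against their label. Whether any tags were left out of the deposit is not known, so the cell type cannot be settled from these markers. Tags outside the lists were not analysed here. In the RNA-seq libraries of the same titles, epithelial messages were present: EPCAM had 8142 counts in HH and 6242 in LL, and the keratin gene KRT8 had 16732 and 10376. VIM, which codes for vimentin and marks mesenchymal cells but rises in many cultured cells, had 11916 and 9718. These RNA-seq genes were picked after their values were seen. The endothelial miR-126 had 0 reads in HH and 1 in LL, and the leukocyte miRNAs miR-142, miR-150 and miR-223 had at most 5 in either library. Reads of the erythroid list numbered 33 and 8, of the muscle list 411 and 337, of the liver miR-122 289 and 209, and of the neural list 576 and 841. The leukocyte list as a whole had 23583 and 8654, nearly all from bta-mir-342 and bta-mir-155, which other cells also make. The part of cell type in the differences below was not tested.

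Most precursors differed by less than 2-fold between the libraries. Ratios are HH over LL after TMM scaling, with the exact 95% interval of the share of reads from HH. TMM centres a trimmed mean of the log2 ratios in which abundant precursors weigh more, so the median precursor need not be centred. Precursors count as higher in HH or LL only if both ends of this interval exceed 2-fold. By this rule 24 precursors were higher in HH (16.8% of 143) and 16 in LL (11.2%), and 103 were neither, so 28.0% were past 2-fold in either direction. Under upper-quartile scaling the calls were 18 in HH and 20 in LL, and with totals taken outside let-7, mir-221 and mir-222 they were 31 and 13. Log2 ratios had a median of 0.24 and quartiles of −0.40 and 0.77, and the other scalings shifted all ratios by −0.30 (upper quartile), −0.18 (DESeq2 size factors), 0.05 (totals) and 0.20 (totals outside let-7, mir-221 and mir-222). The 24 higher in HH together made up 0.868% of HH reads and 0.228% of LL reads. The 16 higher in LL included 3 of the most abundant miRNAs and made up 9.46% of HH reads and 28.0% of LL reads. Hairpins that give the same mature miRNA (bta-mir-29b-2 beside bta-mir-29b-1, for example) cannot be told apart by sequence, and how the authors divided reads between them is not known, so their separate values are uncertain. Members just inside the minimum were bta-mir-7-1, bta-mir-708 and bta-mir-362, with 129, 123 and 102 summed reads and log2 ratios of 0.14, −0.49 and 1.24. Just outside were bta-mir-29b-2, bta-mir-542 and bta-mir-615, with 99, 91 and 90 reads; the first had 0 reads in LL and the others had ratios of 0.65 and 1.16.

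**Figure D1:**
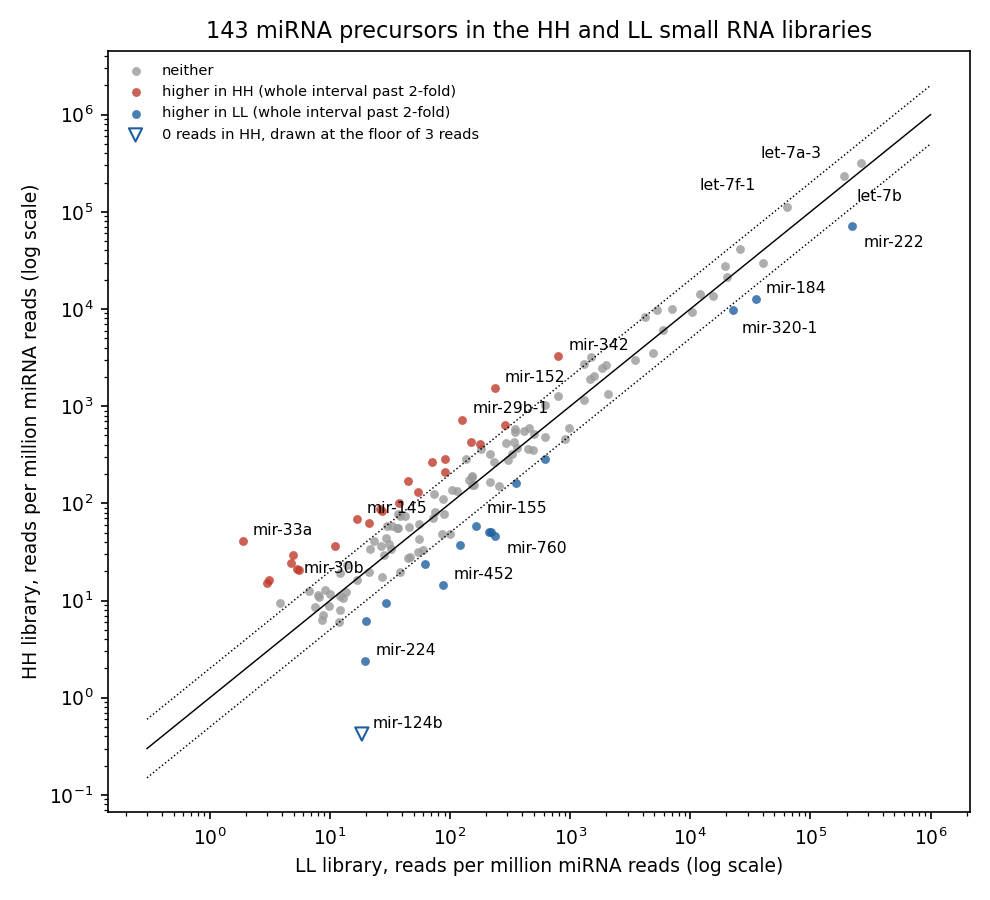
RPM (reads per 1000000 listed miRNA reads) of each of the 143 precursors in the LL library (x axis) and the HH library (y axis), both on log scales. The solid line marks equal values and the dotted lines 2-fold before TMM scaling; red and blue points are the 24 and 16 precursors whose whole interval lies past 2-fold, and the triangle is bta-mir-124b, with 0 reads in HH.

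Among the abundant miRNAs, no let-7 member was past 2-fold by its whole interval, and bta-mir-222, bta-mir-184 and bta-mir-320-1 were higher in LL. The let-7 miRNAs repress growth genes such as those of the RAS family in human cells and are abundant in differentiated tissues. Of the 12 members of the let-7 and mir-98 list 0 were called, and their median was 0.24, equal to that of all 143. With totals taken outside let-7, mir-221 and mir-222, bta-let-7f-2 and bta-let-7g were past 2-fold in HH, and with totals of all reads bta-let-7f-2 was. Their log2 ratios ran from −0.55 for bta-let-7d to 1.03 for bta-let-7f-2. By reads, bta-let-7a-3 had 2273818 in HH and 2385094 in LL, and bta-let-7f-1 had 797220 and 573238.

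miR-221 and miR-222 lie beside each other on the X chromosome and repress the cell cycle inhibitor p27 in human cells. bta-mir-222 reads numbered 506898 in HH and 1993810 in LL, a 3.20-fold excess in LL (interval 3.19 to 3.21). Its neighbour bta-mir-221 had 212689 and 365476 reads, at −0.48, and was not past 2-fold. bta-mir-184, known from cornea and lens epithelium, had 89292 and 316477 reads and was 2.88-fold higher in LL (2.86 to 2.90). bta-mir-320-1, whose hairpin is made without the enzyme Drosha in mouse and human, had 68971 and 207258 and was 2.44-fold higher in LL (2.42 to 2.46). In LL, bta-mir-222 ranked second of all precursors, and in HH it ranked behind 3 let-7 precursors.

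The 6 highest ratios in LL were those of less abundant precursors. bta-mir-124b, a copy of the neuronal miR-124, had 0 reads in HH and 167 in LL. Set against the floor of 3 reads in HH, it was 45.2-fold higher in LL. The bound of its exact interval nearest to no change was −5.18 on the log2 scale. Of those 167 reads, 112 were the 18 nt tag printed above. bta-mir-224 had 17 reads in HH and 178 in LL, and bta-mir-452, which lies beside it, had 103 and 795. These were 8.51-fold (5.17 to 14.9) and 6.27-fold (5.10 to 7.78) higher in LL. bta-mir-760 had 324 and 2124 reads (5.33-fold), bta-mir-877 356 and 1975 (4.51-fold) and bta-mir-2344 360 and 1906 (4.30-fold). miR-877 is a mirtron, a hairpin cut out by splicing in place of Drosha, and lies in ABCF1 in the RefSeq gene table. bta-mir-155, a miRNA of activated immune cells, had 416 and 1494 reads (2.92-fold).

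The remaining 6 precursors higher in LL were bta-mir-92b (−1.75 on the log2 scale), bta-mir-2431 (−1.74), bta-mir-2387 (−1.68), bta-mir-502a-2 (−1.42), bta-mir-365-2 (−1.18) and bta-mir-92a (−1.17). Leaving out tags under 21 nt was tried with the scaling re-estimated on the remaining tags, which alone shifted all ratios by −0.52, and with the scaling of all tags kept. In the first bta-mir-155 was at −0.55 and bta-mir-92a at −0.05, in the second they were at −0.04 and 0.46, and in neither was the call made. The calls of bta-mir-92b and bta-mir-365-2 ended with the scaling kept and not with it re-estimated. In LL, tags of 18 to 20 nt made up 71.8% of bta-mir-155 reads and 89.2% of bta-mir-92a reads, against 19.7% and 66.5% in HH. With short tags left out, bta-mir-124b, bta-mir-2431 and bta-mir-502a-2 had under 100 summed reads. The calls of bta-mir-92a, bta-mir-365-2 and bta-mir-502a-2 also ended with totals taken outside let-7, mir-221 and mir-222.

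In HH the highest ratio was that of bta-mir-33a, which lies in an intron of the cholesterol regulator gene SREBF2 and represses the sterol exporter ABCA1 in mouse and human. Its reads numbered 291 in HH and 17 in LL, a 21.1-fold excess in HH (12.9 to 36.7). SREBF2 itself had a log2 ratio of 0.57 in the RNA-seq libraries. bta-mir-152 had 10951 and 2129 reads, 6.33-fold higher in HH (6.04 to 6.63), and represses the DNA methyltransferase DNMT1 in human cells. Its seed relatives bta-mir-148a and bta-mir-148b were at 1.02 and 0.29 on the log2 scale, and neither was past 2-fold by its whole interval. With totals taken outside let-7, mir-221 and mir-222, bta-mir-148a was (1.22). Without tags under 21 nt, both relatives were past 2-fold in HH with the scaling of all tags kept (1.78 and 1.81). With the scaling re-estimated neither was.

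Family members that share a seed did not always go together. In the miR-29 family, known to repress collagen genes, 2 of 3 precursors were higher in HH. bta-mir-29b-1 had 5151 and 1143 reads (5.55-fold, 5.20 to 5.92) and bta-mir-29c 1871 and 644 (3.58-fold, 3.27 to 3.92). The far more abundant bta-mir-29a had 195736 and 177484 reads, at 0.44, so the reads of the shared seed AGCACCA summed to 2.81% of HH and 1.93% of LL, at 0.49. The miR-30 family split: bta-mir-30b had 210 and 45 reads (5.74-fold higher in HH, 4.15 to 8.11) and bta-mir-30c was at 1.53, while bta-mir-30d, the most abundant, had 3287 and 8229 reads and was at −1.02. The whole interval of bta-mir-30d was not past 2-fold, but it was under DESeq2 size factors (−1.21) and the upper quartile (−1.33). It also was without tags under 21 nt when the scaling was re-estimated, and not when the scaling of all tags was kept (−1.02). The same held for its more abundant arm alone and for tags of at least 10 reads. All reads with the miR-30 seed GTAAACA were at −0.70.

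The miR-15 and miR-16 list, which represses cyclins and BCL2 in human cells, had 3 of 4 members higher in HH. bta-mir-16b was at 1.87, bta-mir-15a at 1.58 and bta-mir-16a at 1.17, and bta-mir-15b at 0.70 was not past 2-fold. The call of bta-mir-16a ended under DESeq2 size factors and the upper quartile. In the miR-34 and miR-449 list 2 of 3 were higher in HH, bta-mir-449a (2.31) and bta-mir-34c (1.62), with bta-mir-34a at 0.55. miR-34 is induced by p53 in human cells and miR-449 is known from ciliated epithelium. Members of these lists share sequence and are not independent of each other.

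Of the list of miR-143, miR-145, miR-199 and miR-214, which are abundant in smooth muscle and connective tissue, 3 of 6 were higher in HH. bta-mir-145 had 489 and 151 reads (3.99-fold, 3.31 to 4.82), bta-mir-214 929 and 486 (2.35-fold) and bta-mir-143 4537 and 2596 (2.15-fold). The most abundant member, bta-mir-199a-2, had 71160 and 64047 reads and was at 0.45. bta-mir-199c went the other way, with 194 and 403 reads, at −0.76 (−1.01 to −0.50), and was not called. The calls of bta-mir-143 and bta-mir-214 ended under DESeq2 size factors and under the upper quartile. The arm of bta-mir-143 with most reads was at 0.94 alone and was not called. Its other arm was at 2.66 and held 15.6% of reads in HH and 5.32% in LL. Over all tags bta-mir-199b had 242 and 194 reads, at 0.62, and was not called. Without tags under 21 nt, bta-mir-199b was past 2-fold in HH with the scaling re-estimated and with it kept (4.13). That value rests on few LL reads: tags of 18 to 20 nt made up 94.8% of its more abundant arm in LL. In HH they made up 41.3%. miR-143, miR-145, miR-199a, miR-199b and miR-214 are also markers of mesenchymal cells, and the part of such cells in the values was not tested.

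The other precursors higher in HH were bta-mir-196b (2.33), bta-mir-339 (2.30), bta-mir-342 (1.99), bta-mir-324 (1.93), bta-mir-146b (1.86), bta-mir-130a (1.68), bta-mir-196a-1 (1.67), bta-mir-193a (1.45), bta-mir-340 (1.38) and bta-mir-93 (1.14). The calls of bta-mir-340 and bta-mir-30c ended under the upper quartile, and that of bta-mir-93 under it and DESeq2 size factors. Without tags under 21 nt, the call of bta-mir-193a ended with the scaling kept (0.98) and re-estimated (0.46), and bta-mir-449a had under 100 summed reads. The calls of bta-mir-34c, bta-mir-93, bta-mir-143, bta-mir-146b, bta-mir-196a-1, bta-mir-214 and bta-mir-340 ended with the scaling re-estimated and held with it kept. bta-mir-342 was the most abundant precursor higher in HH, with 23158 and 7155 reads, and lies in EVL in the RefSeq gene table. The miR-196 genes lie in the HOX clusters. Both miR-196 precursors with enough reads were past 2-fold. bta-mir-10a and bta-mir-10b, which lie in HOXB3 and HOXD4 in the RefSeq gene table, were at −0.16 and 0.28. They belong to the miR-10, miR-99, miR-100 and miR-125 list, others of which, such as bta-mir-99a and bta-mir-100, lie beside let-7 precursors. Of the 8 precursors of that list 0 were past 2-fold, with a median of 0.00 and ratios from −0.38 to 0.47. Precursors higher in HH had a median GC content of 45.2% in the most abundant tag, those higher in LL 54.8% and the rest 47.4%.

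**Figure D2:**
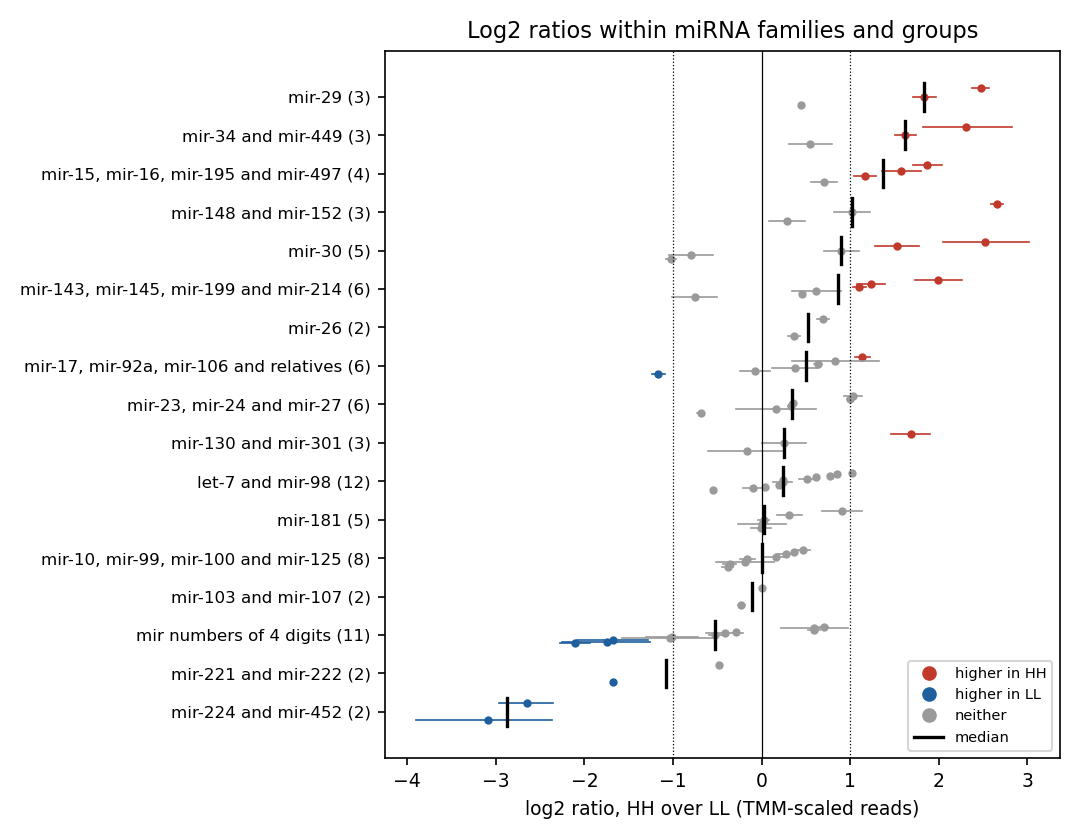
Log2 ratio of HH over LL (x axis) of each precursor with at least 100 summed reads in 17 families or groups (y axis, number of precursors in brackets). Horizontal bars are exact 95% intervals, black bars medians and dotted lines 2-fold; the 12 let-7 and mir-98 precursors sit between −0.55 and 1.03, and bta-mir-224 and bta-mir-452 lie below −2.6.

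Several lists of abundant miRNAs showed no member whose whole interval was past 2-fold. These were the let-7 list and the lists of miR-23, miR-24 and miR-27 (6 precursors, median 0.34), miR-181 (5, 0.02), miR-26 (2, 0.53) and miR-103 with miR-107 (2, −0.11). miR-21, which is abundant in many epithelia, had 59300 reads in HH and 37918 in LL, at 0.94. miR-31 had 75 and 117 reads, at −0.34, and miR-22 was at 0.96. With totals taken outside let-7, mir-221 and mir-222, bta-mir-21 (1.15), bta-mir-22 (1.16), bta-mir-23a (1.20) and bta-mir-27a (1.23) were past 2-fold in HH. Without tags under 21 nt, bta-mir-21 was at 1.86 with the scaling re-estimated and at 2.38 with it kept; tags of 18 to 20 nt made up 28.5% of its reads in HH and 73.5% in LL. Under both, bta-mir-26a-1, bta-mir-125a, bta-let-7i, bta-mir-101-1, bta-mir-199b and bta-mir-345 were also past 2-fold in HH. With the scaling kept, the last 3 were at 1.84, 4.13 and 2.47. In LL, tags of 18 to 20 nt made up 76.7%, 94.8% and 94.7% of the reads of their more abundant arm. In HH they made up 34.3%, 41.3% and 60.7%. Among miR-17, miR-92a, miR-106 and relatives, many of which lie in clusters that promote growth in mouse and human, 1 of 6 precursors was higher in HH, bta-mir-93, and 1 in LL, bta-mir-92a. Of miR-130 and miR-301, 1 of 3 was higher in HH, bta-mir-130a, and the only members above the minimum of the miR-101 and miR-378 lists were at 0.34 and 0.16. The precursors with 4-digit numbers, many of them known in cattle only, had 11 of 133 above the minimum, of which 0 were higher in HH and 3 in LL, with a median of −0.52.

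Neighbouring precursors were compared by the gene table of RefSeq (ARS-UCD2.0), in which 142 of the 143 precursors were found. Within 10 kb of each other lay 57 of them, in 24 clusters. In 13 clusters the highest and lowest log2 ratio of the members differed by less than 1. In no cluster was 1 member higher in HH and another in LL. Under DESeq2 size factors and the upper quartile bta-mir-30b was higher in HH and bta-mir-30d in LL. With the scaling re-estimated, the same held for the leading arm only, tags of at least 10 reads and tags of at least 21 nt. With the leading arm only, bta-mir-532 was also higher in HH and its neighbour bta-mir-502a-2 in LL. bta-mir-181d and bta-mir-181c differed by 0.02 on the log2 scale, bta-let-7c and bta-mir-99a by 0.04 and bta-mir-224 and bta-mir-452 by 0.44. Others lay far apart: bta-mir-30b and bta-mir-30d differed by 3.55, the 4 precursors with bta-mir-502a-2 and bta-mir-532 by 2.66, and bta-mir-29a and bta-mir-29b-1 by 2.03. Of 53 host genes with at least 100 summed RNA-seq counts, which contain 65 of the precursors, 0 were past 2-fold by the whole interval, and their log2 ratios ran from −0.61 to 1.04. Over all 12804 RNA-seq genes with that many counts, 2.87% were past 2-fold. Of the 65 precursors within the hosts, 14 were past 2-fold, against 28.0% of all 143 precursors. The table gives no strand, so a gene that contains a precursor may be transcribed from the other strand.

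The LL library held shorter tags. The mean tag length was 21.9 nt in HH and 21.6 nt in LL. Tags of 18 to 20 nt made up 6.85% of HH reads and 19.0% of LL reads, and tags of 22 nt 70.5% and 57.0%. Much of the excess came from a few miRNAs. Outside the let-7 list and miR-221 with miR-222, tags of 19 nt were 1.29% of HH reads and 2.22% of LL reads, against 3.77% and 12.01% over all miRNAs.

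**Figure D3:**
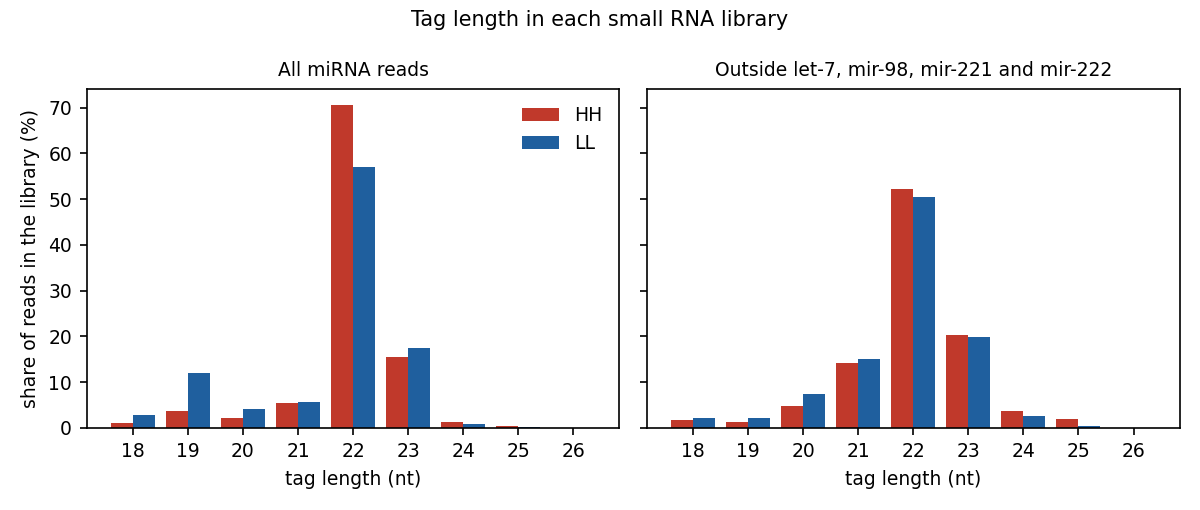
Share of listed miRNA reads (y axis, %) at each tag length in nt (x axis) in the HH and LL libraries, for all reads (left) and without let-7, mir-98, mir-221 and mir-222 (right). At 19 nt the LL bar is 12.01% and the HH bar 3.77% on the left.

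The same shift was seen in most precursors with enough reads. For each, tags overlapping its most abundant tag by at least 12 bases were taken as the leading arm. Over 112 precursors with at least 100 such reads in each library, the leading arm was shorter in LL in 99 and shorter in HH in 13, with a median difference of 0.31 nt. It was shorter by over 0.5 nt in LL in 44 (39.3%) and in HH in 0 (0%). The most abundant tag was not the same sequence in both libraries for 29 precursors (25.9%), and in 27 of these it was shorter in LL. Tags under 18 nt were not listed, so any reads shorter than that are not counted here.

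In bta-let-7b the leading tag of LL was 3 bases shorter than that of HH, while the 5′ end and seed were the same.
bta-let-7b, 22 nt: tGAGGTAGtaggttgtgtggtt
bta-let-7b, 19 nt: tGAGGTAGtaggttgtgtg
The 22 nt tag had 984199 reads in HH and 370638 in LL, and the 19 nt tag 138057 and 763161. As a share of bta-let-7b reads, the short tag was 8.34% in HH and 44.2% in LL. Precursor bta-let-7b as a whole was at 0.24, the long tag at 1.71 and the short tag at −2.17.

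The related bta-let-7i had the same pattern, with a 19 nt tag of 97003 and 173326 reads and a 22 nt tag of 122772 and 15341. Without tags under 21 nt its ratio was 2.45 with the scaling re-estimated and 2.96 with it kept, in place of 0.62, and past 2-fold in HH in both. With the scaling kept bta-let-7b was also past 2-fold in HH. In bta-let-7a-3 the 22 nt tag took 91.2% of reads in HH and 89.6% in LL. Mean lengths differed most in bta-mir-155, at 22.7 nt in HH and 19.7 nt in LL, bta-mir-130b (21.6 and 19.3), bta-mir-199b (21.04 and 18.96) and bta-mir-26a-1 (21.5 and 19.6). In bta-mir-26a-1 the 22 nt tag held 72.8% of reads in HH and 19.7% in LL, and tags of 18 to 20 nt were 16.9% and 76.7% of its leading arm.

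**Figure D4:**
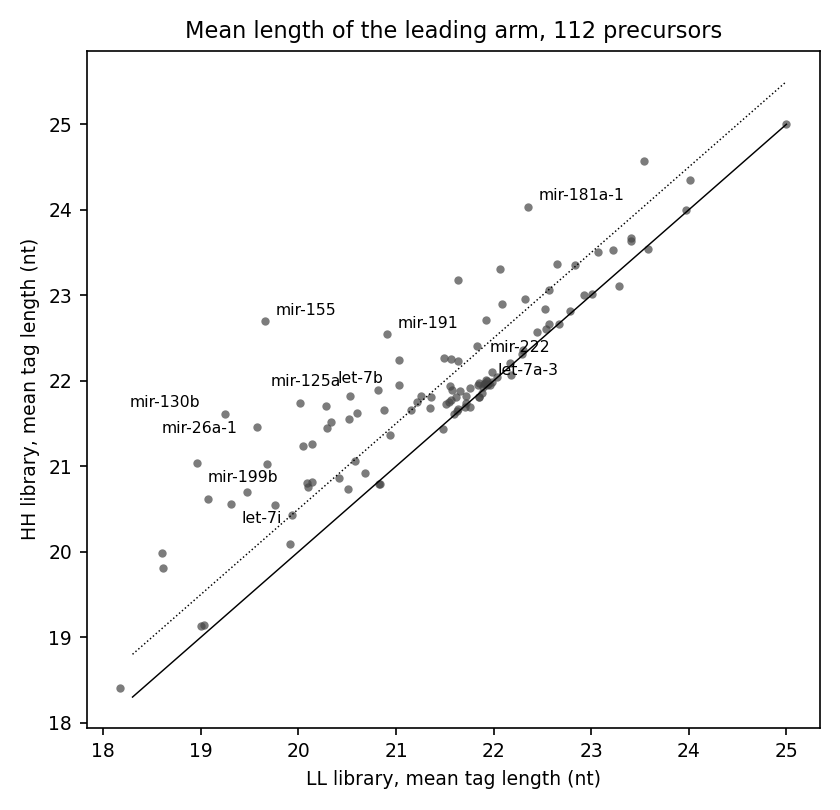
Mean tag length in nt of the leading arm of 112 precursors in the LL library (x axis) and the HH library (y axis). The solid line marks equal lengths and the dotted line 0.5 nt longer in HH; 44 points lie above the dotted line, and bta-let-7a-3 lies near the solid line.

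The share of reads from each arm of the hairpin also differed. Over 116 precursors with at least 100 reads on their arms in each library, 97 had reads on a second arm, and in 65 the second arm held under 1% in both libraries. The share of the second arm differed by over 10 percentage points in 21 (18.1%), higher in HH in 14 and in LL in 7. The largest difference was in bta-mir-193a, whose arms are shown by their most abundant tags.
bta-mir-193a, leading arm: tGGGTCTTtgcgggcgagatga
bta-mir-193a, second arm: aACTGGCCtacaaagtccca
The second arm had 2361 reads in HH and 227 in LL and the leading arm 656 and 1133. The second arm thus took 78.3% of HH reads (76.7 to 79.7%) and 16.7% of LL reads (14.7 to 18.8%). By arm, the log2 ratios were 3.68 (3.48 to 3.88) and −0.49 (−0.63 to −0.35), so the call of the whole precursor as higher in HH came from the second arm. In its close relative bta-mir-193b the second arm took 55.5% in HH and 25.7% in LL.

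The 2 arms of bta-mir-23b moved apart by more than 2-fold in opposite directions, although the precursor was at 0.33.
bta-mir-23b, leading arm: gGGTTCCTggcatgctgattt
bta-mir-23b, second arm: aTCACATTgccagggattaccac
The leading arm had 1724 reads in HH and 7016 in LL (−1.73, interval −1.80 to −1.65) and the second arm 11867 and 6298 (1.21, 1.17 to 1.26). In bta-mir-25 the second arm held 7.002% of reads in HH (6.48 to 7.55%) and 34.3% in LL (33.2 to 35.4%). Its leading arm had 8368 and 4690 reads (1.13) and its second arm 630 and 2448 (−1.66). bta-mir-1307 had 589 second-arm reads in HH and 12 in LL, or 23.2% and 0.268% of its reads. bta-mir-1271 had 68 and 3, or 48.6% (40.04 to 57.2%) and 0.867% (0.179 to 2.51%). In bta-mir-106b, bta-mir-365-2 and bta-mir-204 the second arm was higher in HH by 30.8 to 35.2 percentage points, and in bta-mir-532 it was higher in LL (29.6% and 66.1%).

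**Figure D5:**
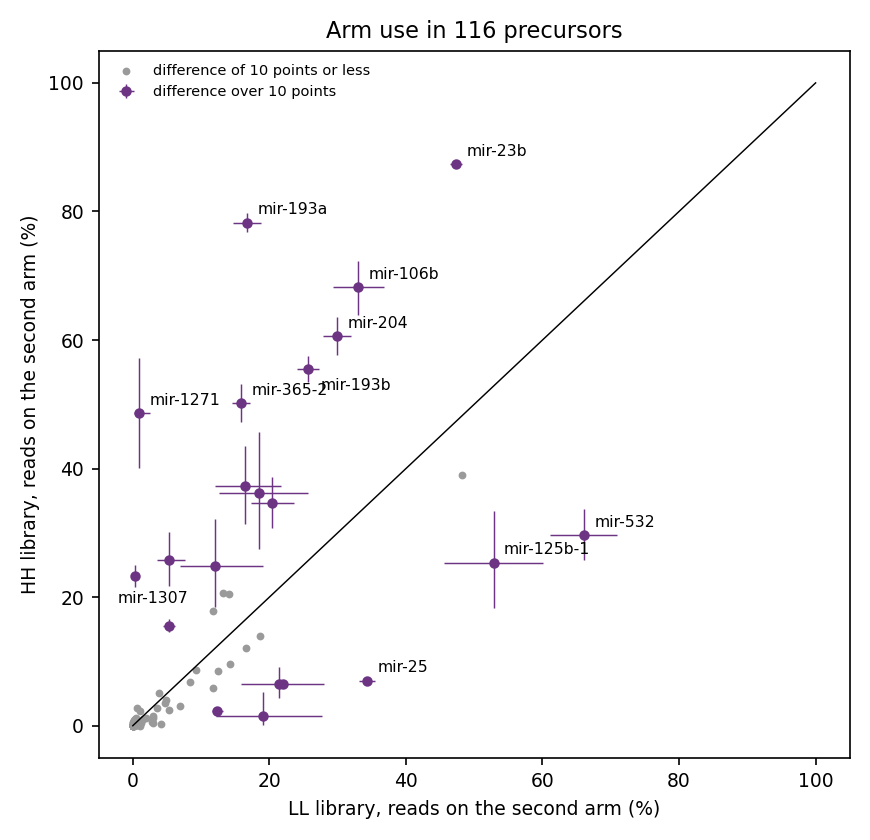
Share of reads on the second arm in the LL library (x axis, %) and the HH library (y axis, %) for 116 precursors, with exact 95% intervals for the 21 that differ by over 10 percentage points. The line marks equal shares; 14 of the 21 lie above it, with bta-mir-193a at 78.3% in HH and 16.7% in LL.

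The base at which the leading arm starts, which sets the seed, was nearly fixed. The main start held a median of 99.2% of leading-arm reads in HH and 99.1% in LL, and at least 90% in both libraries in 90 of 112 precursors. It differed by over 10 percentage points in 5 (4.46%): bta-mir-140, bta-mir-345, bta-mir-210, bta-mir-204 and bta-mir-101-1. bta-mir-140, which lies in WWP2 and is known for its role in cartilage, was by far the most abundant of them. Its tags began at 2 neighbouring bases, which moves the seed by 1 base.
bta-mir-140, main start: aCCACAGGgtagaaccacgga
bta-mir-140, start 1 base upstream: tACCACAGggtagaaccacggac
The 21 nt tag from the main start had 18537 reads in HH and 74380 in LL, and the 23 nt tag from the upstream start 20846 and 940. The main start held 42.5% of leading-arm reads in HH (42.2 to 42.8%) and 79.8% in LL (79.6 to 80.0%). The precursor as a whole was at −0.26.

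Reads summed by seed do not depend on which copy of a miRNA a tag was assigned to. Of 179 seeds with at least 100 reads, 20 were past 2-fold in HH (11.2%) and 32 in LL (17.9%). Seeds were taken from every tag, so a second arm or a shifted start of a precursor counts as its own seed. These counts are therefore not counts of families and are not comparable with the calls of precursors. The let-7 seed GAGGTAG made up 76.0% of HH reads and 58.6% of LL reads, at 0.32, and the miR-221 and miR-222 seed GCTACAT 10.01% and 25.7%, at −1.41. The 2 seeds of bta-mir-140 were on opposite sides: CCACAGG had 40525 reads in HH and 112080 in LL (−1.17) and ACCACAG 53450 and 25129 (1.39). The seed TCACATT, shared by bta-mir-23a and bta-mir-23b, was at 1.11, past 2-fold in HH, although neither precursor was. The miR-148 and miR-152 seed CAGTGCA had 11862 and 2845 reads, at 2.36.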

How the data were processed

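Tags were deposited by the authors as distinct sequences with their length and whole-number read counts, each under 1 precursor name. Per the labels' protocols, RNA was extracted with TRIzol, kept above 18 nt and built into libraries with the Ion Total RNA-Seq kit, although the titles read Solexa. Trimming, mapping, the miRNA database and how reads shared by copies of a miRNA were assigned: not given in the sources used here. Only tags of class miRNA are listed, so totals are miRNA reads, not library depth. The deposited RNA-seq counts served only for host and marker genes.

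Groups follow the title codes. Reads were summed per precursor and scaled with TMM (edgeR 4.0.16, R 4.3.3), and exact (Clopper-Pearson) 95% intervals of the share of reads from HH came from scipy 1.17.1. No p-value was computed. Scripts were tested on simulated data. Other scalings (DESeq2 1.42.0, upper quartile, totals), minimums, tag lengths and arms were tried. The files hold no hairpins, so arms were told apart by a 12-base overlap with the most abundant tag and are called leading and second, in place of the planned 5′ arm. Named precursors were the 10 highest and lowest, the 10 most abundant, list members, the 8 largest arm differences and the 5 start differences over 10 percentage points. Members and lists were chosen with earlier results of these data known.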

Additional observations from a re-analysis of the deposited data

How the results depend on the processing

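No paired analysis was possible because each title has 1 library, and leaving out a replicate was likewise not possible. Of the 40 precursors called, 40 kept their call under total scaling, 36 under DESeq2 size factors, 34 under the upper quartile, 37 when scaled outside let-7, mir-221 and mir-222, 35 with tags of at least 10 reads, 35 with the leading arm and 26 with tags of at least 21 nt, where 4 fell under the minimum. The last 3 settings re-estimate the scaling, which alone shifts ratios by −0.14, −0.08 and −0.52; with the scaling of all tags kept, chosen after seeing the data, 39, 38 and 31 calls held. Tags of at least 21 nt then gave 40 higher in HH and 9 in LL, against 22 and 19 with it re-estimated. Upper-quartile scaling turned the split of calls from 60.0% to 47.4% higher in HH, and scaling outside the abundant miRNAs to 70.5%. A 4-fold threshold left 4 higher in HH and 5 in LL. bta-mir-193a reversed to −0.57 with the leading arm only, since its second arm carried the excess in HH. Of the 179 seeds, 50 were past 2-fold in LL under the upper quartile. With a minimum of 500 reads, which leaves fewer seeds to compare, those past 2-fold in HH numbered 12. Arm shares differed in 12 of 73 precursors with a minimum of 500 reads; with names of a single copy, chosen after seeing the data, 18 of 93 did. Start shares differed in 8 of 140 with a minimum of 20 reads, 2 of 68 with 500, and 2 of 100 with tags of at least 21 nt, the last chosen after seeing the data. Outside let-7, mir-221 and mir-222 the mean tag length was 21.98 nt in HH and 21.8 nt in LL, and with precursors weighted equally 21.9 and 21.4 nt. With tags of at least 10 reads, bta-mir-33a had none in LL and no ratio could be given. Of 226 list medians under these alternatives, 134 stayed inside the counting interval of the list's middle member. Depth limits the rarer precursors: 36 of the 143 precursors had under 500.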
